A study of Mus musculus with 6 samples.

Results

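The receptors for transforming growth factor-β (TGF-β), activin and bone morphogenetic protein (BMP) were examined in primary chondrocytes of Slc39a13-knockout (KO) and wild-type mice. They comprise 10 of the 18193 genes that the array annotation names for single-gene probe sets. Tgfbr1, Acvr1, Bmpr1a, Bmpr1b and Acvrl1 encode type I receptors, Tgfbr2, Acvr2a, Acvr2b and Bmpr2 encode type II receptors, and Tgfbr3 encodes a coreceptor. Every probe set of the Affymetrix mouse array that is annotated to only 1 of these genes was taken, which gave 30 of the 45101 probe sets on the array. A further probe set that is annotated to both Acvr2a and Orc4 was left out. Slc39a13 encodes the zinc transporter ZIP13, and the study asked how its loss affects connective tissue cells, including their BMP and TGF-β signaling.

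The KO group consists of 3 arrays of homozygous Slc39a13-KO chondrocytes, and the wild-type group of 3 arrays of wild-type chondrocytes, each hybridized with 1 RNA sample. The KO allele was made in R1 embryonic stem cells by putting a Neo cassette in place of the exons that encode the conserved metal-binding motif of the transporter family. The deletion is carried in the germline and is therefore in every cell of the mouse. The chondrocytes were released with collagenase from the rib cartilage of newborn mice and cultured. No sort or added ligand is named, and the strain, sex and number of the mice behind each array are not given in the sources used here. The p-values therefore measure the spread between these RNA samples. Sex-linked transcripts differ within each group (below), so the 3 arrays of a group do not all come from 1 source. The spread between arrays that are alike in these transcripts may be technical.

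TGF-β, activins and BMPs signal through pairs of transmembrane serine/threonine kinases. The ligand brings a type II receptor, whose kinase is always active, together with a type I receptor, which it phosphorylates. The type I receptor then phosphorylates Smad proteins that enter the nucleus, Smad2 and Smad3 for TGF-β and activin, and Smad1, Smad5 and Smad9 for BMP. The coreceptor encoded by Tgfbr3, betaglycan, has no kinase and presents ligand to the signaling receptors. In cartilage, BMP receptors are needed for chondrocytes to form and mature, whereas TGF-β signaling through Tgfbr2 restrains their maturation.

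Before the receptors are described, the arrays themselves were checked. Slc39a13 averaged 154 ± 48.9 signal units in KO chondrocytes and 991 ± 89.8 signal units in wild-type chondrocytes (SD, n = 3 each), a log2 fold change of -2.67 (limma, adjusted p = 0.000190). Where its probe set lies relative to the deleted exons is not given in the sources used here. The KO replicate 1 array stood apart, with correlations of 0.921 to 0.925 with the other 5 arrays, against 0.944 to 0.960 among those. Transcripts linked to sex split each group, with 1 array of 3 unlike the other 2 in both KO (replicate 2) and wild type (replicate 3). Of 13 chondrocyte markers, 5 were higher and 1 was lower in KO chondrocytes. For this and all other marker lists, the shares of all tested genes were 4.64% higher and 4.67% lower. The summed signal of the chondrocyte markers was 150571 to 211365 in KO arrays and 107322 to 130648 in wild-type arrays. The collagen II gene Col2a1, which defines the cell type, was among the bright markers, at 40475 to 62818 signal units in KO arrays and 29852 to 37219.9 in wild-type arrays. It did not pass the test (log2 fold change 0.50, adjusted p = 0.0835), nor did Sox9 (0.04, adjusted p = 0.840). The 1 lower marker was Col9a3 (-0.50, adjusted p = 0.0124). Of 15 mesothelial markers, 11 of the 14 tested were lower in KO chondrocytes and 0 were higher, with a summed signal of 1226 to 2219.5 in KO arrays and 6473 to 10524 in wild-type arrays. Mesothelium lines the body cavity against the ribs, and the array cannot tell fewer cells of a type from less RNA per cell.

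Signals are the deposited intensities on a linear scale. Fold changes are KO minus wild type on the scale of log2(signal + 7.96), which understates the change of dim probe sets. The brightest probe set of a gene that passed a filter on low values stands for the gene. A change was called at an adjusted p under 0.05 over all tested genes or, for single probe sets, over all tested probe sets.

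Among the receptors, 1 gene was lower in KO chondrocytes, Tgfbr2, and 1 was higher, Bmpr2. Both are type II receptors. The other 7 of the 9 tested receptor genes did not pass the test, and the tenth, Acvr2b, lay under the filter. Over all 12715 tested genes, 590 (4.64%) were higher, 594 (4.67%) were lower and 9.31% passed in either direction. With each array centred on its median log2 value, 106 genes were higher and 228 lower. By probe set, 25 of the 30 receptor probe sets were tested, and 1 was higher, 1 was lower and 23 did not pass, beside 3.44% higher and 3.37% lower (6.81% in either direction) of 23294 probe sets. The groups did not overlap for 7 of these 25 probe sets, beside 28.8% of all. With no filter the same 2 of all 30 receptor probe sets passed, beside 3.84% of 34945. None of the 9 tested genes differed 2-fold, as 433 genes (3.41%) of the whole array did. The KO and wild-type arrays did not overlap for 5 of the 9 receptor genes, 3 with all KO arrays above and 2 with all KO arrays below, beside 30.9% of all tested genes.

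**Figure D1:**
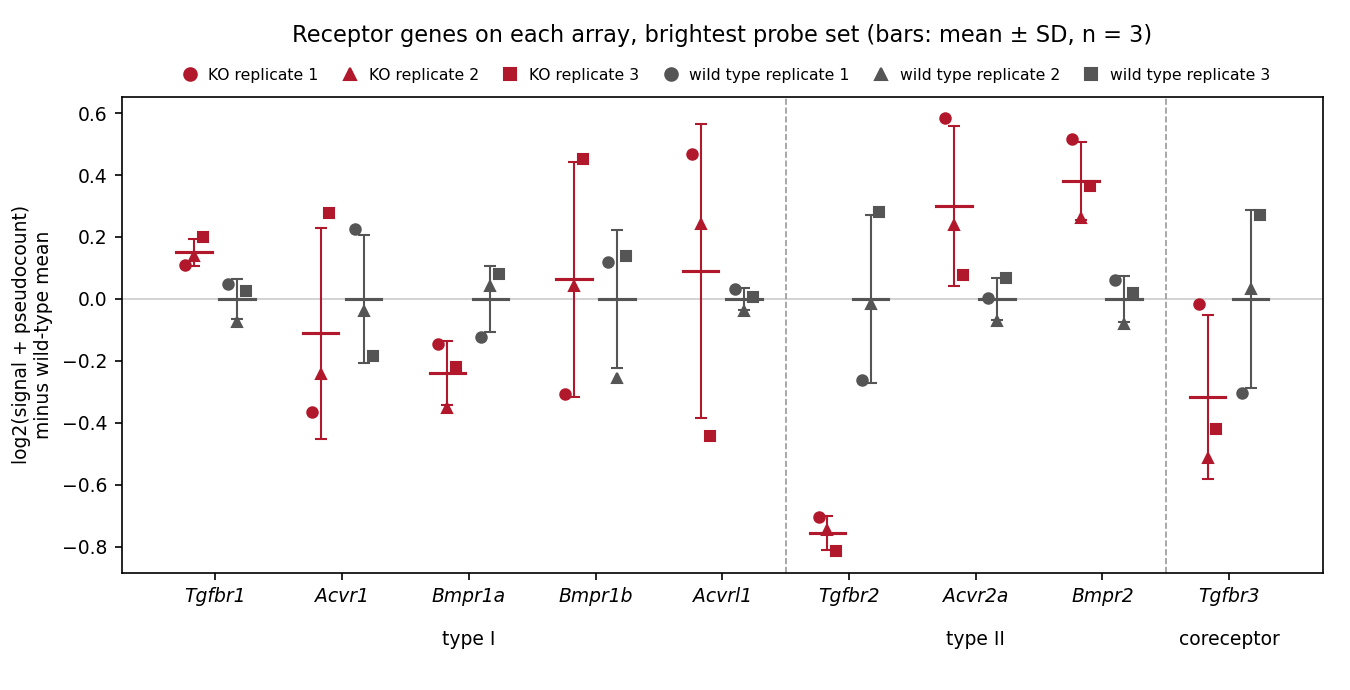
Level of the 9 tested receptor genes on each of the 6 arrays, as log2(signal + 7.96) of the gene's brightest probe set minus its wild-type mean, KO left of wild type. Marker shapes give the replicate number and bars the mean ± SD of 3 arrays. For Tgfbr2 and Bmpr1a each KO array has a lower level than any wild-type array, and a higher one for Tgfbr1, Acvr2a and Bmpr2.

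To show the genomic start of the genes that changed, the 250 bases before the transcription start of Tgfbr2 and Bmpr2 are printed beside those of Tgfbr1, the type I partner of Tgfbr2. They were read 5′ to 3′ on the gene's strand from RefSeq for GRCm38.p6, which held 8 of the 10 receptor genes. Capitals mark the GC box GGGCGG and the CCAAT box on either strand (CCGCCC and ATTGG are their reverse complements).
Tgfbr2 (chr9:116175364-116175613, minus strand): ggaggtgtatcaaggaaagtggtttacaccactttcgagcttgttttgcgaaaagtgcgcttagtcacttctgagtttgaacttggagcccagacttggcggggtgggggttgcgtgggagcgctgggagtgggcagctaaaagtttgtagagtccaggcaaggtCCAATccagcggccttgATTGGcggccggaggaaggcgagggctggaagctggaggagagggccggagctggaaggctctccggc
Tgfbr1 (chr4:47352972-47353221, plus strand): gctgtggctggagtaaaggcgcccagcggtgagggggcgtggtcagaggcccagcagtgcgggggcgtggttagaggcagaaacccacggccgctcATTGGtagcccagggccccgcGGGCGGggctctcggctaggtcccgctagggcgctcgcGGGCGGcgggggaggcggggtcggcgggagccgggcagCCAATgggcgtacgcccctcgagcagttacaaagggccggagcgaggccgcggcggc
Bmpr2 (chr1:59764029-59764278, plus strand): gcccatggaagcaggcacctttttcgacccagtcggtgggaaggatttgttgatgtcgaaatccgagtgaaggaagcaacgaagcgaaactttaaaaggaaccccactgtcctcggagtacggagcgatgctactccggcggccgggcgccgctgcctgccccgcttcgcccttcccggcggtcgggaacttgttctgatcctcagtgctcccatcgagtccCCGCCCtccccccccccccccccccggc
The Tgfbr2 window held 0 GC boxes and 2 CCAAT boxes, and the Tgfbr1 window held 2 of each. The Bmpr2 window held 1 GC box and 0 CCAAT boxes. None of the 3 windows held TATAAA. GC bases made up 58.4% of the Tgfbr2 window, 74.8% of the Tgfbr1 window and 64.0% of the Bmpr2 window. Of 32851 mouse windows of this length, 32.7% held a GC box, 33.8% a CCAAT box and 12.4% TATAAA. These letter matches are descriptions of the windows.

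Tgfbr2, the type II receptor that binds TGF-β, lies on chromosome 9 (116087695 to 116175363 of GRCm38.p6, as all gene positions here). Its brightest probe set, 1426397_at, gave 3534, 3433 and 3276 signal units in the KO arrays, against 4808, 5698 and 7000.0 in the wild-type arrays. All KO arrays were below all wild-type arrays, and the wild-type arrays were the more spread, with means of 3414 ± 129.9 in KO and 5836 ± 1102 in wild type (SD, n = 3 each). Tgfbr2 was 0.592-fold of wild type in KO chondrocytes, a log2 fold change of -0.76 (SE 0.12, 95% interval -1.02 to -0.49, adjusted p = 0.00522 over genes and 0.00780 over probe sets). The dimmer probe set 1425444_a_at gave 504, 433 and 363 signal units in the KO arrays, against 441, 643 and 784 in the wild-type arrays. Here KO replicate 1 lay above wild-type replicate 1, and the log2 fold change of -0.49 (SE 0.21) did not pass the test (adjusted p = 0.192). The remaining probe set, 1422019_at, lay under the filter at 21.4, 51.7 and 29.5 signal units in the KO arrays, against 35.7, 28.5 and 22.7 in the wild-type arrays, and the groups overlapped.

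The Tgfbr2 gene passed the test when any single array was left out, with log2 fold changes of -0.89 to -0.62, and without KO replicate 1 it was -0.78 (adjusted p = 0.00742). It did not pass without the 2 arrays that differ in sex-linked transcripts (-0.62, adjusted p = 0.0547), without limma's variance trend (adjusted p = 0.0659), or as the mean of all 3 probe sets with no filter (-0.37, adjusted p = 0.199). The mesothelial markers moved beside it: their summed signal was 2219.5, 1825 and 1226 in KO replicates 1 to 3 and 6473, 6640.4 and 10524 in wild-type replicates 1 to 3, so that wild-type replicate 3 was highest for both. Their part in the Tgfbr2 result was not tested.

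Bmpr2 encodes the type II receptor for BMPs and lies on chromosome 1 (59764279 to 59878081). Its brightest probe set, 1434310_at, gave 2731, 2290.2 and 2461 signal units in the KO arrays, against 1991, 1803 and 1935 in the wild-type arrays. All KO arrays were above all wild-type arrays, with means of 2494 ± 222 in KO and 1909.9 ± 96.6 in wild type (SD, n = 3 each). The gene was 1.30-fold of wild type in KO chondrocytes, a log2 fold change of 0.38 (SE 0.09, 95% interval 0.18 to 0.58, adjusted p = 0.0263 over genes and 0.0365 over probe sets). The other probe sets did not pass the test. The probe set 1419616_at gave 299, 226 and 263 signal units in the KO arrays, against 333, 256 and 277 in the wild-type arrays (-0.13, adjusted p = 0.698). The probe set 1441652_at gave 149.8, 70.7 and 62.3 in the KO arrays, against 73.3, 86.6 and 74.7 in the wild-type arrays (0.15, adjusted p = 0.848), and KO replicate 1 alone stood above the wild-type arrays.

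The Bmpr2 call was lost without wild-type replicate 1 (adjusted p = 0.0673), wild-type replicate 2 (0.130) or wild-type replicate 3 (0.0845), with each array centred on its median (log2 fold change 0.29, adjusted p = 0.350) and with the mean of the gene's 3 probe sets (0.13, adjusted p = 0.661), while without KO replicate 1 the gene still passed (0.31, adjusted p = 0.0415) but its probe set, adjusted over all probe sets, did not. It was also lost without the 2 arrays that differ in sex-linked transcripts (0.45, adjusted p = 0.108) and without the variance trend (adjusted p = 0.117).

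**Figure D2:**
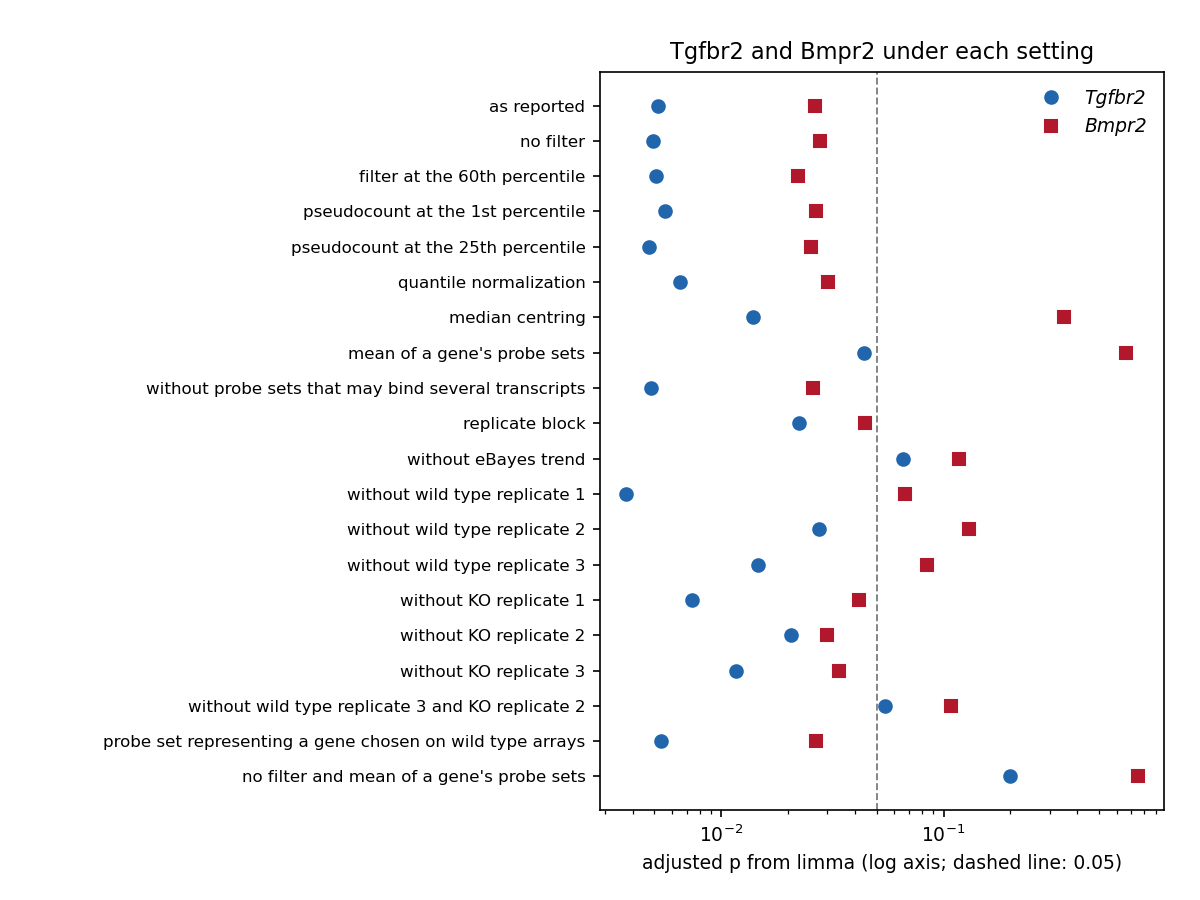
Adjusted p from limma for Tgfbr2 and Bmpr2 in the reported fit and under each of 19 other settings, on a log axis with the threshold of 0.05 as a dashed line. Tgfbr2 stayed under the line in 16 of the 19 settings and Bmpr2 in 11.

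The activin type II receptors did not pass or lay under the filter. Acvr2a, on chromosome 2 (48814109 to 48903264), binds activins and several BMPs. Its probe set 1437382_at gave 649, 509 and 455 signal units in the KO arrays, against 432, 410.0 and 452 in the wild-type arrays. The groups did not overlap, but KO replicate 3 exceeded wild-type replicate 3 by little, and the log2 fold change of 0.30 (95% interval -0.03 to 0.63) did not pass (adjusted p = 0.238). Its other probe set, 1451004_at, overlapped between groups (0.06, adjusted p = 0.886). All 3 probe sets of Acvr2b, a second activin type II receptor on chromosome 9 (119401583 to 119442148), were dim and under the filter. They gave 7.65 to 79.0 signal units in KO arrays and 6.84 to 37.4 in wild-type arrays. In the limma fit with no filter none passed (log2 fold changes 0.07 to 0.16, adjusted p 0.905 to 0.970).

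None of the 5 type I genes passed the test. Their log2 fold changes ran from -0.24 to 0.15 with a median of 0.06, against a median of 0.01 over all tested genes. Of their 17 probe sets, 16 were tested, 11 with positive and 5 with negative log2 fold changes, and 0 passed in limma. The smallest unadjusted p of limma among them was that of Bmpr1a, 0.0216 as a gene and 0.0245 for its brightest probe set. The 3 tested type II genes had log2 fold changes of -0.76, 0.30 and 0.38. By brightest probe set they lay farther apart than the type I genes, a description of the 8 genes rather than a test. Over all tested probe sets the ranges were alike, -0.61 to 0.36 for type I (median 0.09) and -0.76 to 0.38 for type II (median 0.06).

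Tgfbr1, the type I partner of Tgfbr2 (ALK5), lies on chromosome 4 (47353222 to 47414926). Its brightest probe set, 1420895_at, gave 1697, 1732 and 1804 signal units in the KO arrays, against 1625, 1491 and 1599 in the wild-type arrays. The KO arrays were all higher but by little, with a log2 fold change of 0.15 (SE 0.08, 95% interval -0.03 to 0.33, adjusted p = 0.277). The other probe sets pointed the same way without passing, 1420893_a_at at 0.33 (adjusted p = 0.339, KO arrays all above) and 1420894_at at 0.25 (adjusted p = 0.458, groups overlapping).

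Bmpr1a (ALK3), the main BMP type I receptor of cartilage together with Bmpr1b, lies on chromosome 14 (34411061 to 34503336) and had the most probe sets, 6. The brightest, 1425492_at, gave 2569.7, 2228 and 2441 signal units in the KO arrays, against 2614, 2925 and 3009 in the wild-type arrays. Every KO array was lower than every wild-type array, and KO replicate 1 came within a small margin of wild-type replicate 1. The log2 fold change of -0.24 (SE 0.09, 95% interval -0.43 to -0.04) had an unadjusted p of 0.0216 in limma and did not pass after adjustment (0.123). The 4 other tested probe sets of Bmpr1a were spread on both sides of 0, from -0.23 (1451729_at, adjusted p = 0.619) to 0.23 (1425494_s_at, adjusted p = 0.287), and overlapped between groups. The last, 1445413_at, lay under the filter at 6.57 to 9.03 signal units in KO arrays and 3.30 to 4.65 in wild-type arrays.

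Bmpr1b (ALK6), which marks condensing cartilage in the limb, lies on chromosome 3 (141837135 to 142169585). Its probe set 1437312_at gave 155, 199 and 267 signal units in the KO arrays, against 210.3, 160.3 and 213 in the wild-type arrays. The groups overlapped (log2 fold change 0.06, 95% interval -0.47 to 0.59, adjusted p = 0.901). A dimmer one, 1422872_at, gave 127, 135 and 123 signal units in the KO arrays, against 98.7, 95.5 and 99.7 in the wild-type arrays. Those groups did not overlap, yet the log2 fold change of 0.36 had an adjusted p of 0.416. The dimmest probe set, 1443720_s_at, overlapped between groups (0.26, adjusted p = 0.738).

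Acvr1 (ALK2), a BMP type I receptor, lies on chromosome 2 (58446438 to 58566828), as do Acvr2a and Slc39a13 itself (91061781 to 91070441), at 32.6 and 42.2 Mb from Slc39a13 for Acvr1 and Acvr2a. The probe set 1448460_at gave 1163, 1268 and 1819.8 signal units in the KO arrays, against 1755, 1460.3 and 1319 in the wild-type arrays. Each group ranged widely and they overlapped, with a log2 fold change of -0.11 (95% interval -0.47 to 0.25, adjusted p = 0.723). The other 2 probe sets of Acvr1 stood at 0.09 and 0.20 and overlapped as well.

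Acvrl1 (ALK1) is known chiefly from endothelial cells. Its brighter probe set, 1451604_a_at, gave 123, 104 and 61.8 signal units in the KO arrays, against 88.9, 84.4 and 87.3 in the wild-type arrays. The KO arrays lay on both sides of the wild-type arrays (log2 fold change 0.09, 95% interval -0.67 to 0.85, adjusted p = 0.901), and the dimmer probe set, 1435825_at, stood at -0.61 (adjusted p = 0.450). Of 16 endothelial markers, 10 lay under the filter, among them Pecam1, Cdh5, Tek and Esam. Esam was lower in every KO array, at 38.5, 5.02 and 7.08 signal units against 106, 78.0 and 148 in the wild-type arrays. The 6 tested markers had 4 positive and 2 negative log2 fold changes, and only Erg passed, being higher (log2 fold change 1.03, adjusted p = 0.0218). The tested endothelial markers summed to 1009 to 1222 signal units in KO arrays and 943 to 1123 in wild-type arrays. Much of this sum is the coreceptor gene Eng, at 398 to 510 in KO arrays and 512 to 554 in wild-type arrays. Eng also counts among the other receptors and coreceptors below.

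The coreceptor gene Tgfbr3 lies on chromosome 5 (107106567 to 107289629). Its brightest probe set, 1433795_at, gave 815, 575 and 615 signal units in the KO arrays, against 667, 842 and 997 in the wild-type arrays. KO replicate 1 lay among the wild-type arrays, and the log2 fold change of -0.32 (SE 0.17, 95% interval -0.69 to 0.06) did not pass (adjusted p = 0.281). The other probe set, 1425620_at, did not differ in mean (131 ± 10.7 in KO and 131 ± 25.3 in wild type, SD, n = 3 each), with a log2 fold change of 0.01.

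**Figure D3:**
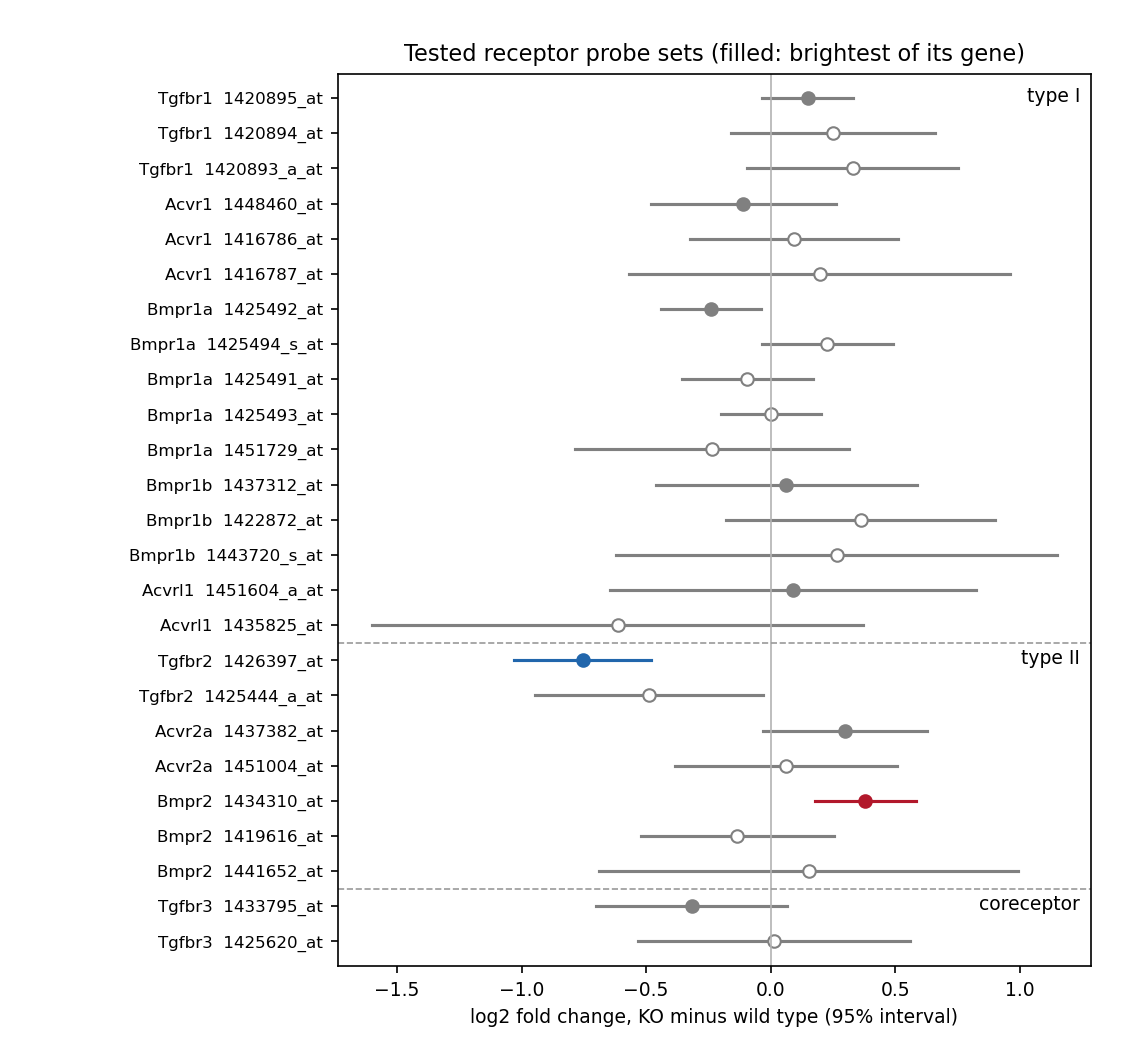
Log2 fold change (KO minus wild type) with its 95% interval for each of the 25 tested receptor probe sets, grouped by gene. Filled points mark the brightest probe set of a gene. Only the brightest probe sets of Tgfbr2 (-0.76) and Bmpr2 (0.38) passed the test, and the other probe sets of Bmpr1a lie on both sides of 0.

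To compare partners without the scaling between arrays, log2 ratios were taken within each array between the brightest probe sets of receptors that act together. Probe sets bind with unlike strength, so only the difference between groups is read, not the level of a ratio. The log2 ratio of Tgfbr2 over Tgfbr1 was 1.05, 0.98 and 0.86 in the KO arrays, against 1.56, 1.93 and 2.12 in the wild-type arrays. All KO arrays were below all wild-type arrays, a difference of -0.91 (exact two-sided permutation test, p = 0.1, adjusted p = 0.133 over the 4 ratios). The log2 ratio of Bmpr2 over Bmpr1a was 0.09, 0.04 and 0.01 in the KO arrays, against -0.39, -0.70 and -0.63 in the wild-type arrays. All KO arrays were above all wild-type arrays, a difference of 0.62 (exact permutation p = 0.1, adjusted 0.133).

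The log2 ratio of Tgfbr3 over Tgfbr2 was -2.11, -2.56 and -2.40 in the KO arrays, against -2.84, -2.75 and -2.80 in the wild-type arrays. The KO arrays were all above the wild-type arrays, by 0.44 on average (exact permutation p = 0.1, adjusted 0.133). The ratio of Acvr2a over Acvr1 overlapped between groups, with log2 means of -1.37 ± 0.58 in KO and -1.78 ± 0.24 in wild type (SD, n = 3 each, exact permutation p = 0.3). With 3 arrays against 3 the smallest p this test allows is 0.1, so no ratio could pass. Each ratio whose groups did not overlap holds Tgfbr2 or Bmpr2, the genes called on these same arrays. Such a ratio in part restates the call and is no separate support for it. With the mean of a gene's tested probe sets the Bmpr2 over Bmpr1a difference was 0.20 in place of 0.62.

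**Figure D4:**
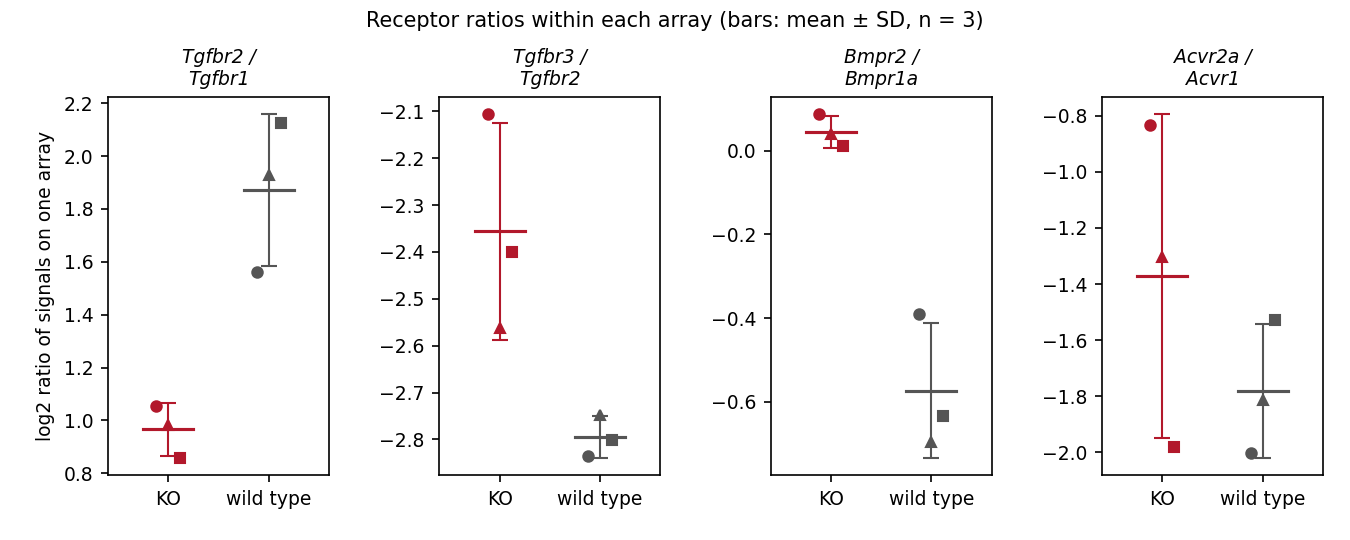
Log2 ratio of 2 receptors' brightest probe sets within each array, one panel per ratio, KO left of wild type, with bars for the mean ± SD of 3 arrays. The arrays of the groups are apart for Tgfbr2 over Tgfbr1 (difference -0.91), Tgfbr3 over Tgfbr2 (0.44) and Bmpr2 over Bmpr1a (0.62), and mixed for Acvr2a over Acvr1. Each ratio that is apart holds a called gene, Tgfbr2 or Bmpr2.

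The genes nearest to Tgfbr2 over the 6 arrays, by the root mean square difference of log2 values centred on the wild-type mean, were Fhl1 (0.0476), Sh2d4a (0.0735) and Card10 (0.101) among 12714 genes compared, with log2 fold changes of -0.79, -0.70 and -0.71. Those nearest to Bmpr2 were Ccdc88a (0.0298), Ascc2 (0.0363) and Abhd12 (0.0401), with log2 fold changes of 0.38, 0.34 and 0.38, of which Ascc2 did not pass the test (adjusted p = 0.116). All were picked for matching the receptor on these same arrays, so their similar fold changes follow from the choice.

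Among 11 other receptors and coreceptors of the family, 8 were tested, 2 were higher, 0 were lower and the median log2 fold change was 0.09. For this and the following lists, the shares of all tested genes were 4.64% higher and 4.67% lower. Acvr1b (ALK4), the activin type I receptor, gave 1333, 962 and 1168 signal units in the KO arrays, against 713, 733 and 745 in the wild-type arrays. The groups did not overlap (log2 fold change 0.64, SE 0.12, adjusted p = 0.0105), but with no filter the mean of all its probe sets gave 0.22 (adjusted p = 0.859). Neo1, neogenin, which binds repulsive guidance molecules that act as BMP coreceptors, gave 2468, 2537 and 3299 signal units in the KO arrays, against 1621, 1638 and 1509 in the wild-type arrays. The groups did not overlap here either (0.79, SE 0.11, adjusted p = 0.00351), though only 1 of its 4 other probe sets passed and the mean of its probe sets did not (0.31, adjusted p = 0.428). With each array centred on its median neither passed, at 0.55 for Acvr1b (adjusted p = 0.0846) and 0.69 for Neo1 (adjusted p = 0.0623). Endoglin (Eng), the coreceptor that works with Acvrl1, stood at -0.23 (adjusted p = 0.304), and Bambi, a decoy receptor without a kinase, at 0.30 (adjusted p = 0.119). Acvr1c, Hjv and Tdgf1 lay under the filter.

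Of 20 genes for proteins that traffic, modify or dampen the receptors, 19 were tested, 1 was higher, 2 were lower and the median was -0.09. Dab2, an endocytic adaptor that binds TGF-β receptors, gave 4485, 3868 and 3253 signal units in the KO arrays, against 5706, 6286 and 6593 in the wild-type arrays. It was lower in every KO array (log2 fold change -0.69, SE 0.11, adjusted p = 0.00598), and 2 of its 3 other probe sets passed. Without the 2 arrays that differ in sex-linked transcripts it did not pass (-0.65, adjusted p = 0.0923).

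Nedd4l, a ubiquitin ligase of the pathway, gave 378, 400.1 and 505 signal units in the KO arrays, against 756, 604 and 581 in the wild-type arrays (-0.59, adjusted p = 0.0374). Its other probe set stood at 1.03 without passing, the direction thus turned when the brighter one was left out. Ppp1r15a (GADD34), which brings a phosphatase to the TGF-β type I receptor, was the one higher gene, at 1473, 1319.8 and 1276 signal units in the KO arrays, against 1093, 1049.7 and 1086 in the wild-type arrays (0.33, adjusted p = 0.0470). Each of these 2 calls was lost in 12 of the 19 settings. Leaving out wild-type replicate 1, 2 or 3 or KO replicate 1 or 2 gave adjusted p-values of 0.155, 0.104, 0.0726, 0.0712 and 0.10 for Nedd4l, and of 0.129, 0.181, 0.139, 0.0779 and 0.0846 for Ppp1r15a.

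On either side of the receptors, 18 of 32 ligand genes were tested and only Gdf10, a ligand of the BMP family, passed (log2 fold change 1.10, adjusted p = 0.00730). Of 18 tested extracellular antagonists and binding proteins, 5 were higher and 1 was lower, with a median of 0.13. Chrdl1, a BMP antagonist, was the most raised of them (1.28, adjusted p = 0.000559), and follistatin (Fst), which binds activins, was the one lower (-1.49, adjusted p = 0.000180). Among 16 Smads and corepressors only Tob1, an inhibitor of Smad signaling, passed, and it was lower (-1.05, adjusted p = 0.000157).

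Of 22 tested TGF-β target genes, 7 were higher and 1 was lower, with a median of 0.26. Among all tested genes 4.64% were higher and 4.67% lower. The lower target was Tgfb1i1 (-0.37, adjusted p = 0.0308). The leading higher ones encode matrix proteins, elastin (Eln, 1.18, adjusted p = 0.00356) and the collagen crosslinking enzyme lysyl oxidase (Lox, 0.72, adjusted p = 0.00394). Smad7, the inhibitory Smad induced by the pathway, stood at 0.04 (adjusted p = 0.869). Of 19 tested BMP target genes, 4 were higher and 1 was lower, with the same median of 0.26. The lower one was Id1 (-0.28, adjusted p = 0.0402), with all KO arrays below all wild-type arrays. The BMP antagonist noggin (Nog, 0.88, adjusted p = 0.0215) and the transcription factor gene Dlx5 (0.78, adjusted p = 0.0152) had the largest changes among the 5 that passed. Nog and Grem1, both higher, also count among the higher antagonists above. Larger changes that did not pass were those of Dlx3 (1.29, adjusted p = 0.195), Msx1 (-1.18, adjusted p = 0.239), Msx2 (-1.09, adjusted p = 0.134) and Gata6 (-1.08, adjusted p = 0.0732), chosen after their values were seen.

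The calls for Nog and Dlx5 depended on single arrays. Nog did not pass without wild-type replicate 1 (adjusted p = 0.0789), wild-type replicate 2 (0.0700) or wild-type replicate 3 (0.0721), or with the replicate number as a block (0.0572), and Dlx5 did not pass without wild-type replicate 1 (0.0670), wild-type replicate 3 (0.0676) or KO replicate 2 (0.0516). Markers of fibroblasts and perichondrium had 7 higher and 4 lower of 18 tested, and a summed signal of 140663 to 163409 in KO arrays and 118803 to 135432 in wild-type arrays. The 4 lower ones were Pdgfra (-0.51), Thy1 (-0.49), S100a4 (-0.75) and Dpp4 (-2.51). Bright genes weigh most in the sum, and Vim, which did not pass, averaged 44687 signal units in KO and 41468 in wild type. Col1a1, Col1a2, Col3a1 and Postn, all higher, are on this list and on that of the TGF-β targets and count in both. Lum, Pdgfrb and Tnmd were the other higher ones. The part of these cells in the target gene counts was not tested.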

How the data were processed

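Total RNA of cultured primary chondrocytes from Slc39a13-KO and wild-type mice was labeled with biotin by a one-cycle method and hybridized to Affymetrix mouse genome arrays, 3 per group. The authors deposited signal intensities on a linear scale, per the labels made with MAS5 (version not given in the sources used here). The methods name gcRMA, but the arrays share a trimmed mean of 500.003 and have unequal quantiles, as scaled MAS5 values do. Arrays have no read depth, and their number limits the precision.

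Of 45101 probe sets, 34958 had 1 gene symbol, 932 had several and 9211 had none in GEO's platform annotation, and 64 were controls. Those with 1 symbol were used after controls were left out (34945), of which 34754 matched a RefSeq gene by Entrez identifier. Values were taken as log2(signal + 7.96), the pseudocount being the 10th percentile of all values. A filter removed probe sets whose mean over the 6 arrays lay below the 40th percentile (5.80 on this log2 scale), and each gene was represented by its brightest remaining probe set. KO was compared with wild type in limma 3.58.1 under R 4.3.3 (lmFit followed by eBayes with a variance trend and no covariate), with Benjamini-Hochberg adjustment over 12715 genes or 23294 probe sets. Counts and medians of lists carry no test. The methods give a 2-fold criterion and no test. The scripts were tested on simulated data, where 32.8% of 1.5-fold and 67.2% of 2-fold changes were called. A gene that did not pass is therefore not shown to be unchanged.

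The receptor genes, the pathway and marker lists and the tests were chosen with earlier results of these data known. Named are all receptors, every other receptor or regulator past the threshold, up to 2 genes with the largest changes from each further pathway list, and the 3 genes nearest to each called receptor. A few further genes and markers were named after their values had been seen. Markers are given as counts and ranges. Alternatives were 2 other filters, 2 other pseudocounts, quantile normalization, centring on array medians, averaging the probe sets of a gene, no probe sets that may bind several transcripts, the replicate number as a block, no variance trend and arrays left out. After values had been seen, 2 were added, the brightest probe set chosen on wild-type arrays and no filter together with the mean of all probe sets.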

Additional observations from a re-analysis of the deposited data

How the results depend on the processing

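The direction of Tgfbr2 (lower) and Bmpr2 (higher) was the same in all 19 alternatives. Each of these used the gene's brightest probe set, alone or in a mean, and so says little on the direction of the dimmer ones. The 1 higher receptor gene became 0 with median centring, averaged probe sets, no variance trend, both arrays that differ in sex-linked transcripts left out, and no filter with the mean (0 to 1 over single arrays left out). The 1 lower gene became 0 under the last 3 of these (1 to 1). Receptor probe sets higher became 0 with median centring, the replicate block, no trend and both arrays out (0 to 1), and probe sets lower became 0 under the last 2 of these (1 to 1). The cause was not tested.

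The median of the type I genes was -0.11 without probe sets that may bind several transcripts (-0.13 to 0.11 over single arrays left out), and that of the type II genes was 0.13 with the mean of probe sets and 0.12 with no filter and the mean (0.16 to 0.39). The difference of the log2 ratio Bmpr2 over Bmpr1a was 0.20 with the mean and 0.11 with no filter and the mean (0.56 to 0.71), and under the last setting Tgfbr2 over Tgfbr1 was -0.61 (-1.06 to -0.78) and Tgfbr3 over Tgfbr2 was 0.22 (0.31 to 0.54).

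Several genes that were not called changed sign. Bmpr1b was -0.032 and Acvrl1 -0.0049 with median centring, and Bmpr1b ran from -0.13 to 0.25, Acvrl1 from -0.10 to 0.36 and Acvr1 from -0.30 to 0.017 over single arrays left out. With the mean of probe sets, filtered or not, Acvr1 was 0.060 and Acvrl1 -0.26, and Bmpr1a was 0.021 with no filter. Acvrl1 was -0.61 without probe sets that may bind several transcripts. Nedd4l, which was called lower, was 0.22 with the mean, 0.10 with no filter and the mean, and 1.03 without such probe sets. Acvrl1 gave no value with the filter at the 60th percentile, nor Dlx5 without probe sets that may bind several transcripts.

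Over all genes, 590 higher and 594 lower became 122 and 142 with no trend, 106 and 228 with median centring, 97 and 126 with both arrays out, and 272 and 252 with no filter and the mean, and single arrays left out gave 229 to 775 higher and 197 to 802 lower. The replicate numbers did not pair the samples, since deviations from the group means correlated at 0.03, 0.02 and -0.07 for numbers 1 to 3. With the replicate block 345 genes were higher and 350 lower, and Tgfbr2 (adjusted p = 0.0223) and Bmpr2 (0.0444) passed. Among the deleted gene, the receptors and the named pathway genes, Slc39a13, Fst, Chrdl1 and Tob1 passed in all alternatives. Signals under the filter, as for Acvr2b and Esam, are dim and were not tested in the reported fit, so differences among them are not read as changes.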
